A study of Mus musculus with 6 samples.

Results

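The glutathione, thioredoxin and NRF2 genes code for the enzymes with which cells remove peroxides, superoxide and reactive electrophiles. A list of 48 such genes was taken to the array annotation, and a gene counted as measured where a probe set named it and no other gene. This held for 42 of the 48 genes, out of 22180 genes measured in all. Ggt1, Gstm5, Gstz1, Prdx1, Prdx5 and Prdx6 were not analysed here. The tissue was the outer wall of the eye, that is the retinal pigment epithelium (RPE) dissected together with choroid and sclera, from untreated mice at an age of 12 months. The first group was 3 samples of mice heterozygous for the 5XFAD transgenes, and the second was 3 samples of non-transgenic wild-type (WT) littermates. 5XFAD mice carry mutant human amyloid precursor protein and presenilin 1 under the neuronal Thy1 promoter, so that the transgenes are not targeted to the RPE. There was 1 array for each sample. Whether a sample is a single animal or a pool is not in the labels, and the p-values below therefore reflect only how these samples vary, in part perhaps for technical reasons.

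Glutathione is a tripeptide whose thiol group reduces peroxides through glutathione peroxidases and is joined to electrophiles by glutathione transferases. Thioredoxin works beside it through peroxiredoxins, and both systems are recharged with NADPH. The transcription factor NRF2, coded by Nfe2l2, is held down by KEAP1 and, when released by oxidants, pairs with a small MAF protein and switches on many of these genes through the antioxidant response element. The RPE lives under strong light, high oxygen use and daily uptake of oxidised photoreceptor membrane, and it is known for a high capacity of these systems.

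The arrays were of like overall signal, with medians of 5.59 to 5.71 (log2 intensity) and correlations over all probe sets of 0.981 to 0.990. Markers of the labelled tissue gave strong signals: 20 of 22 RPE markers were measured, Rpe65 among them at percentile 99.9 of all genes, and the list had its median at percentile 98.8. Of 16 rod and cone markers measured, the median percentile was 45.6, but Gnat1 lay at percentile 90.2 and Cdhr1 at 89.6. Gnat1 signal varied widely within groups, at 9.34, 8.64 and 7.04 in 5XFAD and 9.28, 7.30 and 8.89 in WT (replicates 1 to 3). Of 11 erythroid markers only Slc4a1 and Epb42 were measured, at percentiles 32.8 and 30.3, so that blood carry-over could not be read from globin genes.

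No member passed the adjusted threshold between 5XFAD and WT tissue (limma, Benjamini-Hochberg over 22180 genes, lowest adjusted p = 0.50). Over all genes 5 passed (0.0225%). Only Slc7a11, 1 of 42 members, had both an unadjusted p under 0.05 and a 1.5-fold or wider difference, as had 0.717% of all genes. At an unadjusted p under 0.05 limma gave 4 of the 42 members (9.52%). The share was 6.28% of all genes and 7.04% of the genes brighter than the median. All 4 were higher in 5XFAD: Slc7a11, the cystine importer; Mgst1, a membrane-bound glutathione transferase; Ggt5, a glutathione-cleaving surface enzyme; and Glrx, glutaredoxin. In all genes 2.89% were higher at that threshold and 3.39% lower. The median difference of the 42 members was 0.02 on the log2 scale, with 23 positive and 19 negative. That of all genes was -0.01, with 47.2% positive. The genes brighter than the median, which hold 38 of the members, had a median difference of 0.0025, with 50.8% positive. The members ran from -0.26 for Gclm to 0.91 for Slc7a11. Their median size of difference, whatever its sign, was 0.14, against 0.09 in all genes, and the median SD within groups was 0.16, against 0.15. The count at an unadjusted p under 0.05 was 7 without 5XFAD replicate 3 and 2 without WT replicate 1.

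Markers of other cells differed between the same arrays. Of 14 surface epithelium markers 11 had positive differences. Of these 4 passed as higher, namely Krt4, Krt6a, Krt13 and Krt15 (limma, Benjamini-Hochberg adjusted p under 0.05). Dsp, Aldh3a1 and Perp were not higher, with differences of -0.19, -0.07 and -0.01. The list mean lay at 6.50 to 7.05 in 5XFAD and 5.69 to 5.78 in WT (log2 intensity). The RPE list mean lay at 10.00 to 10.13 in 5XFAD and 10.27 to 10.47 in WT, with 17 of 20 differences negative. Cldn19, Trpm1 and Best1 went the other way, with differences of 0.66, 0.62 and 0.26. No RPE marker passed the adjusted threshold (limma, Benjamini-Hochberg, lowest adjusted p = 0.13). Of 7 melanin markers 6 had positive differences. For skeletal muscle the list means lay at 6.26 to 7.52 in 5XFAD and 5.62 to 6.94 in WT, with 19 of 20 positive. The rod and cone list means overlapped, at 5.49 to 6.20 in 5XFAD and 5.70 to 6.34 in WT, with 15 of 16 negative. As for surface epithelium and RPE, the list means did not overlap for pericytes and smooth muscle. They lay at 9.11 to 9.49 in 5XFAD and 8.98 to 9.04 in WT, with 7 of 8 differences positive. The same held for lens, at 5.88 to 5.93 in 5XFAD and 5.95 to 6.09 in WT with 9 of 10 negative, and by a narrow margin for mast cells, where 6 of 7 were positive. Their part in the differences of the members was not tested. In bulk tissue a change in the number of cells of a type and a change in RNA per cell cannot be told apart.

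**Figure D1:**
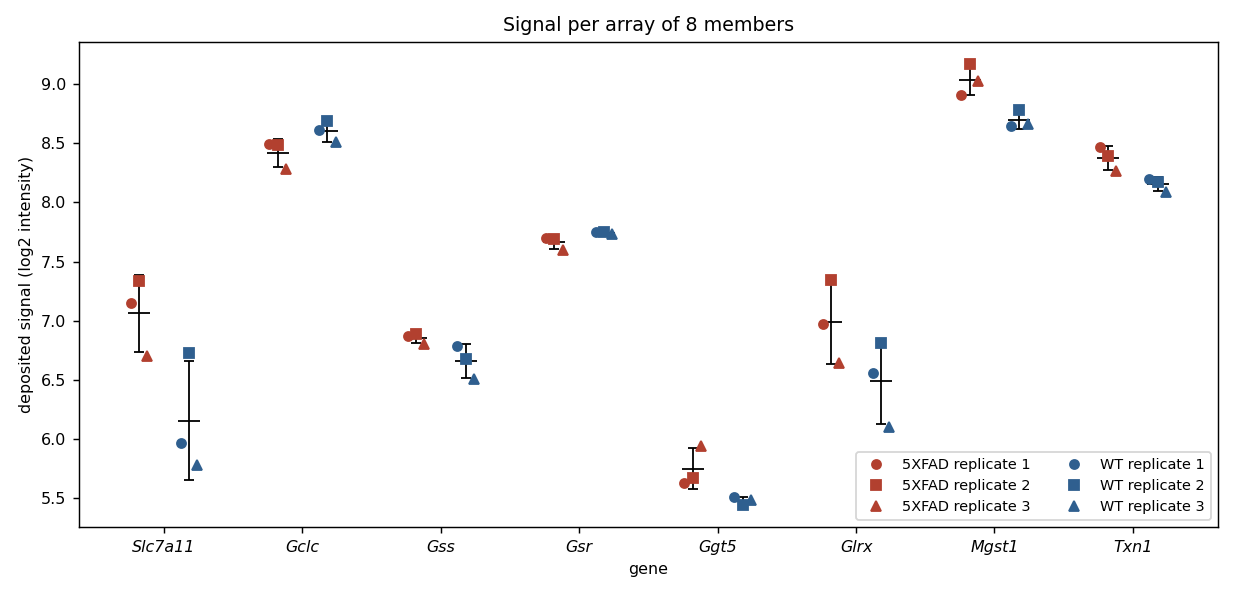
Deposited log2 intensity of the 8 members with an unadjusted limma p under 0.05 or with groups that did not overlap. Points are single arrays (5XFAD red, left; WT blue, right; shape gives the replicate number), with the mean and SD of 3 arrays in black. Slc7a11 and Glrx have wide spreads within both groups, while Mgst1 and Txn1 have tight and separate groups.

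Glutathione starts with cystine, and the cystine importer showed the widest difference among the members. Slc7a11 codes for xCT, the light chain of the antiporter that brings in cystine in exchange for glutamate. Its signal was 7.15, 7.34 and 6.70 in 5XFAD and 5.96, 6.73 and 5.78 in wild type (log2 intensity, replicates 1 to 3, as for all values given per array). The groups touched: WT replicate 2 lay just above 5XFAD replicate 3, and the other values were apart. The difference was 0.91 ± 0.25 (log2, ± SE), a 1.88-fold level in 5XFAD, with a 95% interval of 0.35 to 1.46 (limma, unadjusted p = 0.0047, Benjamini-Hochberg adjusted p = 0.50). Slc7a11 has a second, dim probe set with a mean of 3.30 on the log2 scale, and that probe set gave -0.03 ± 0.14. The mean of both probe sets gave 0.44 ± 0.16 (limma, Benjamini-Hochberg adjusted p = 0.71), so the size of the difference rests on the brighter probe set. Without WT replicate 2 the difference was 1.19 (limma, Benjamini-Hochberg adjusted p = 0.072). This was the widest difference among 15 alternative settings, and in that setting the genes called over all also rose, from 5 to 19. Over the 15 settings the adjusted p of Slc7a11 ran up to 0.91 (limma, Benjamini-Hochberg). The heavy chain that xCT needs to reach the membrane, Slc3a2, had a difference of 0.01 ± 0.11 with an interval of -0.25 to 0.26; it was named after its value was seen.

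The enzymes that build and recycle glutathione had no unadjusted p under 0.05. Gclc is the catalytic subunit of glutamate-cysteine ligase, the rate-limiting step, and its signal was 8.49, 8.48 and 8.28 in 5XFAD and 8.61, 8.69 and 8.51 in wild type. The groups did not overlap, with all 5XFAD arrays lower, but by -0.18 ± 0.11 (limma, Benjamini-Hochberg adjusted p = 0.89). Gclm, the regulatory subunit, was at 8.58, 8.57 and 8.28 in 5XFAD and 8.73, 8.90 and 8.57 in wild type. Its difference of -0.26 ± 0.13 was the most negative of the members, and the groups overlapped at 5XFAD replicates 1 and 2 and WT replicate 3 (limma, Benjamini-Hochberg adjusted p = 0.84). Without 5XFAD replicate 3 the differences were smaller, at -0.11 for Gclc and -0.16 for Gclm. Gss, which adds the last amino acid, was at 6.87, 6.89 and 6.81 in 5XFAD and 6.79, 6.68 and 6.51 in wild type. Here all 5XFAD arrays were higher, by 0.20 ± 0.11 (limma, Benjamini-Hochberg adjusted p = 0.87). Gsr, the reductase that recycles oxidised glutathione with NADPH, was at 7.70, 7.69 and 7.60 in 5XFAD and 7.75, 7.75 and 7.73 in wild type. All 5XFAD arrays were lower, by only -0.08 ± 0.09 (limma, Benjamini-Hochberg adjusted p = 0.95). The difference of Gss was 0.12 without WT replicate 3, and that of Gsr -0.05 without 5XFAD replicate 3. Across the 42 members the groups did not overlap in 6 genes (14.3%). The same held for 11.3% of all genes and 12.7% of the genes brighter than the median. Of these 6 members 4 were higher and 2 lower in 5XFAD (4.72% and 6.62% of all genes), and 4 of the 6 were genes of glutathione synthesis, recycling and breakdown.

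Ggt5 and Glrx, of the breakdown and use of glutathione, were the other members around glutathione itself at an unadjusted p under 0.05. Ggt5 cleaves glutathione and leukotriene C4 outside the cell, and its signal was 5.63, 5.67 and 5.95 in 5XFAD and 5.51, 5.44 and 5.48 in wild type. This probe set was dimmer than the median gene, at percentile 41.8. All 5XFAD arrays were higher, and 5XFAD replicate 3 stood highest. The difference was 0.27 ± 0.11 (limma, unadjusted p = 0.038, Benjamini-Hochberg adjusted p = 0.76), and 0.17 without 5XFAD replicate 3. Glrx, which uses glutathione to free protein thiols, was at 6.97, 7.35 and 6.64 in 5XFAD and 6.56, 6.81 and 6.10 in wild type. The groups overlapped, and the spread within each was wider than the difference of 0.50 ± 0.21 (limma, unadjusted p = 0.044, Benjamini-Hochberg adjusted p = 0.78). That difference was 0.31 without 5XFAD replicate 2 and 0.30 without WT replicate 3. The role of glutathione uptake, synthesis, recycling and breakdown, in which Glrx was counted, held 7 measured genes. Of these 3, namely Slc7a11, Ggt5 and Glrx, had an unadjusted p under 0.05 in limma, where 6.28% of all genes did. None (0) passed the adjusted threshold. The genes were chosen with earlier results of these data known, so this count carries no test.

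The promoter windows of Slc7a11, Glrx, Mgst1 and Gclm are shown since they hold different response elements upstream of 3 members with an unadjusted p under 0.05 and of the most negative member. RefSeq promoter windows (GRCm38.p6) were matched by symbol for 35 of the 42 measured members, and Gclc, Gsr, Ggt5, Gsta4, Gstt2, Sod3 and Hmox1 had no entry. Each line below gives the 250 bases before the start of transcription, 5′ to 3′ on the strand of the gene, with motif matches in capitals.
Slc7a11 (chr3:50443614-50443863, minus strand): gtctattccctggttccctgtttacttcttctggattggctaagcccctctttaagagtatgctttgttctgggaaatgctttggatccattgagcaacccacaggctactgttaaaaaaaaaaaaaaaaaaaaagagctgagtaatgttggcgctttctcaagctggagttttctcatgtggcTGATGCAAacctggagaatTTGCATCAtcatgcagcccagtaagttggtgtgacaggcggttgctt
Glrx (chr13:75839635-75839884, plus strand): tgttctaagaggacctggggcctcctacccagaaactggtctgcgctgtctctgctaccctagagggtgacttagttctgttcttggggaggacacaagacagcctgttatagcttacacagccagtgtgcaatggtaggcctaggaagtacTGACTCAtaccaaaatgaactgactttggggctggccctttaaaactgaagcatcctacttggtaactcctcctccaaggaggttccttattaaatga
Mgst1 (chr6:138140277-138140526, plus strand): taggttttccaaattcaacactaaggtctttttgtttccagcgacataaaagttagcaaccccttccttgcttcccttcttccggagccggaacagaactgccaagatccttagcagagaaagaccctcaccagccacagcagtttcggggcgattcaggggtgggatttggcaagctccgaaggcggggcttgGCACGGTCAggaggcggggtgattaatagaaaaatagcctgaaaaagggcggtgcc
Gclm (chr3:122245307-122245556, plus strand): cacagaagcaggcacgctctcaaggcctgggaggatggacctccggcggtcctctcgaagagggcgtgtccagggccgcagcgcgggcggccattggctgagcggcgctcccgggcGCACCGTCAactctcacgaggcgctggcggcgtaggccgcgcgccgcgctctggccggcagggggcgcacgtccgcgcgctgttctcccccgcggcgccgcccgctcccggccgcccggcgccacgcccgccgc
The capitals mark TGATGNAA in Slc7a11, the core of the element bound by ATF4 with C/EBP proteins, in the amino acid response; TGANTCA in Glrx, the AP-1 site; and TGACNNNGC in Mgst1 and Gclm, the core of the antioxidant response element. Both strands were searched, and the antioxidant core can overlap an AP-1 site. Slc7a11 holds its motif in both orientations, TGATGCAA starting at -66 and its reverse complement at -47, counted from the start of transcription. TGATGNAA lay upstream of 1 of 35 members, Slc7a11, against 3.91% of 27025 genes with such windows, so its presence there is no enrichment. The motifs were chosen with the values known. The antioxidant core lay upstream of Gclm, Gsta3, Mgst1, Txnrd1, Sod1 and Nfe2l2, 6 of 35 members, against 11.5% of all genes, and the AP-1 site upstream of Glrx, Gstp1, Mgst2 and Srxn1, 4 of 35, against 7.82%. The differences of the 6 genes with the antioxidant core ran from -0.26 for Gclm to 0.65 for Gsta3, with -0.10 for Sod1, -0.07 for Nfe2l2, -0.03 for Txnrd1 and 0.34 for Mgst1.

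Nfe2l2, Keap1 and 4 of the enzymes that NRF2 is known to induce, Nqo1, Hmox1, Srxn1 and Txnrd1, had no unadjusted p under 0.05. Other known NRF2 targets on these arrays had differences of either sign, with 0.91 for Slc7a11, -0.26 for Gclm and -0.51 for Me1. Nfe2l2 signal was 9.25, 9.13 and 9.00 in 5XFAD and 9.14, 9.30 and 9.16 in wild type, with overlapping groups and a difference of -0.07 ± 0.11, which ran from -0.14 to -0.01 when single arrays were left out. Keap1, whose protein targets NRF2 for degradation, was at 7.10, 7.32 and 6.89 in 5XFAD and 7.15, 7.29 and 7.32 in wild type, a difference of -0.15 ± 0.13, which moved to -0.26 when 5XFAD replicate 2 was left out and to -0.04 when 5XFAD replicate 3 was. Its groups overlapped, and its second, dimmer probe set gave -0.06 ± 0.11. Nqo1, a quinone reductase that is a standard NRF2 target, was at 8.66, 8.66 and 8.66 in 5XFAD and 8.71, 8.65 and 8.59 in wild type. These values lay between 8.59 and 8.71 on all 6 arrays, and the 95% interval of the difference was -0.20 to 0.22. Hmox1, which degrades haem and answers to many stresses, was at 7.64, 7.97 and 7.86 in 5XFAD and 7.59, 7.75 and 7.89 in wild type, with overlapping groups and an interval of -0.20 to 0.36. Srxn1, which repairs over-oxidised peroxiredoxins and is another NRF2 target, was at 7.48, 7.58 and 7.52 in 5XFAD and 7.39, 7.56 and 7.46 in wild type, with an interval of -0.17 to 0.27. Txnrd1, the cytosolic thioredoxin reductase, was at 8.44, 8.41 and 8.26 in 5XFAD and 8.44, 8.54 and 8.21 in wild type, with an interval of -0.29 to 0.24. None of these intervals reached a 1.5-fold difference in either direction, and the limma Benjamini-Hochberg adjusted p-values of these genes ran from 0.93 to 1.00.

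**Figure D2:**
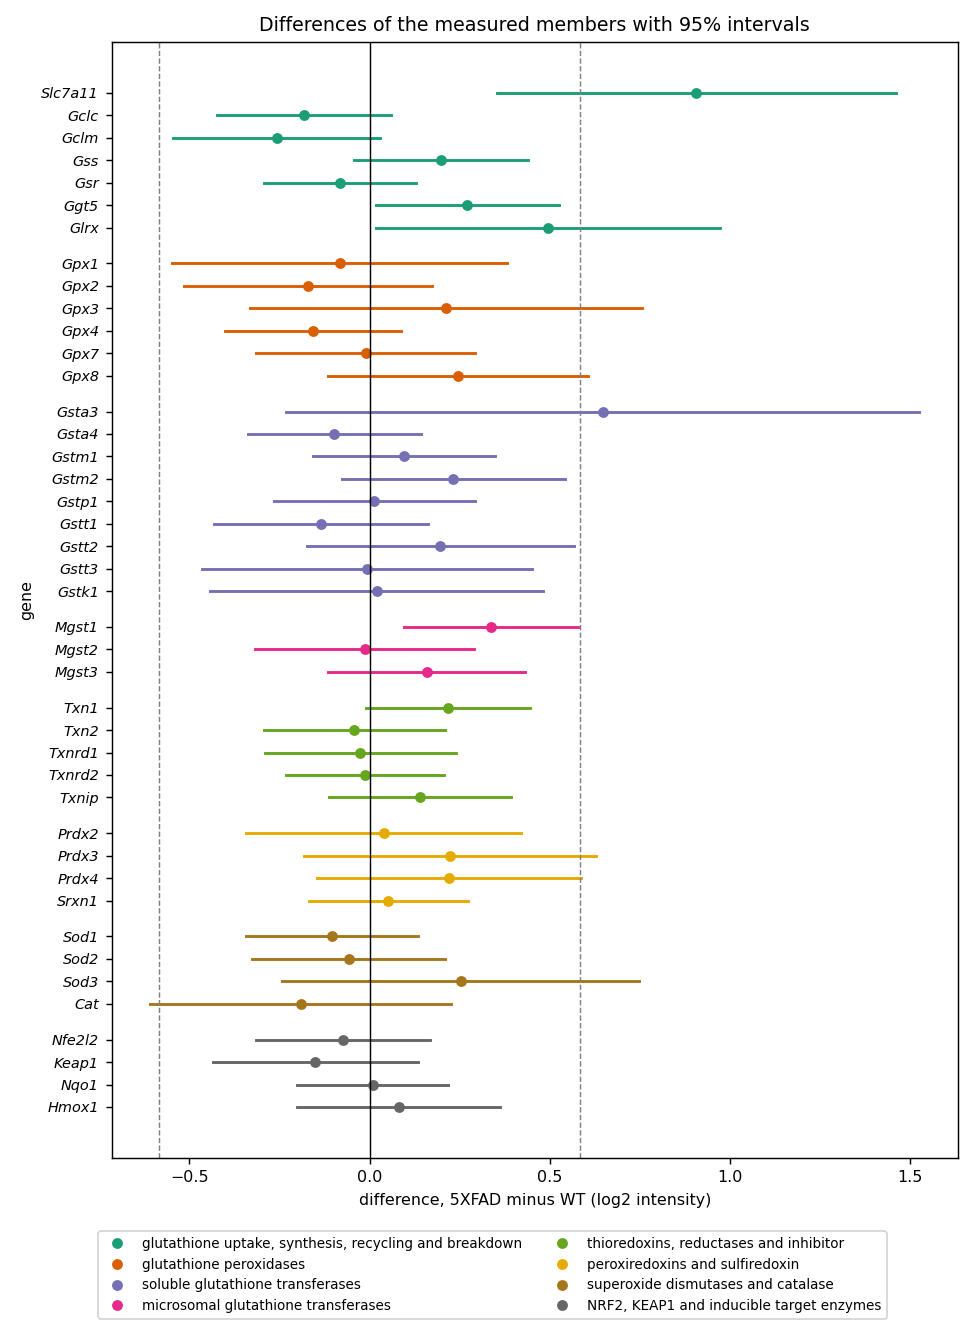
Difference of each of the 42 measured members, 5XFAD minus WT, in log2 intensity (points) with its unadjusted 95% interval from limma (lines), coloured by role. Dashed lines stand at a 1.5-fold difference in either direction; 33 intervals lie between them, and the intervals of Slc7a11, Mgst1, Ggt5 and Glrx lie wholly above 0.

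Thioredoxins and peroxiredoxins gave 0 members at an unadjusted p under 0.05 in limma. Txn1, cytosolic thioredoxin, was at 8.47, 8.39 and 8.26 in 5XFAD and 8.20, 8.17 and 8.09 in wild type. All 5XFAD arrays were higher, and the gap between the group means, 0.22 ± 0.10, was wider than the range within either group (limma, unadjusted p = 0.058, Benjamini-Hochberg adjusted p = 0.81). Txn2, its mitochondrial counterpart, had -0.04, and the mitochondrial reductase Txnrd2 -0.01. Txnip, the inhibitor of thioredoxin that also curbs glucose uptake, was at 11.09, 11.24 and 11.05 in 5XFAD and 11.14, 10.87 and 10.95 in wild type, the highest probe set signal of the members, which does not rank transcripts. Its groups overlapped and the difference was 0.14 ± 0.11. Prdx2, the cytosolic peroxiredoxin of red cells and neurons, averaged 7.67 ± 0.33 in 5XFAD and 7.63 ± 0.18 in wild type (± SD, n = 3 each). Prdx3, of mitochondria, averaged 8.44 ± 0.21 in 5XFAD and 8.22 ± 0.35 in wild type, and Prdx4, of the secretory pathway, 5.76 ± 0.26 in 5XFAD and 5.54 ± 0.24 in wild type (± SD, n = 3 each). All 4 measured genes of the peroxiredoxin and sulfiredoxin role had positive differences, from 0.04 to 0.22, and the intervals of Prdx3 and Prdx4 reached past a 1.5-fold difference.

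Membrane-bound glutathione transferases held the member with the second smallest p. Mgst1 sits in the endoplasmic reticulum and outer mitochondrial membrane, where it also reduces lipid peroxides. Its signal was 8.91, 9.17 and 9.02 in 5XFAD and 8.65, 8.78 and 8.66 in wild type. The groups were apart, and the difference of 0.34 ± 0.11, a 1.26-fold level, was wider than the range within either group (limma, unadjusted p = 0.011, Benjamini-Hochberg adjusted p = 0.63). Mgst3 differed by 0.16 ± 0.12 and Mgst2, a dim probe set at percentile 33.9, by -0.01 ± 0.13.

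Of the soluble glutathione transferases 9 of 11 were measured, and 0 had an unadjusted p under 0.05 in limma. Gsta3, an alpha class enzyme, had the widest spread of all members within WT, at 7.43, 8.23 and 7.86 in 5XFAD and 6.91, 8.21 and 6.45 in wild type. Its difference of 0.65 ± 0.39 was smaller than the WT range, and WT replicate 2 lay close to the highest 5XFAD array (limma, Benjamini-Hochberg adjusted p = 0.90). Gsta4, which conjugates the lipid peroxidation product 4-hydroxynonenal, averaged 10.73 ± 0.11 in 5XFAD and 10.83 ± 0.10 in wild type, and Gstp1, the pi class enzyme, 10.51 ± 0.18 in 5XFAD and 10.50 ± 0.14 in wild type (± SD, n = 3 each). Their intervals were -0.34 to 0.14 and -0.27 to 0.29. The remaining members ran from -0.13 for Gstt1 to 0.23 for Gstm2, with Gstm1 at 0.10, Gstt2 at 0.20, Gstt3 at -0.01 and the mitochondrial and peroxisomal Gstk1 at 0.02. Gstm and Gstt genes lie in clusters of close paralogs and Gstp1 has a near-identical neighbour, Gstp2, so their signals may be shared in part.

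Glutathione peroxidases, superoxide dismutases and catalase gave 0 members at an unadjusted p under 0.05 in limma. Gpx4, the selenoenzyme that reduces lipid peroxides in membranes and blocks ferroptosis, averaged 9.37 ± 0.14 in 5XFAD and 9.53 ± 0.06 in wild type (± SD, n = 3 each), with an interval of -0.40 to 0.09. Gpx1, the cytosolic enzyme, averaged 9.67 ± 0.48 in 5XFAD and 9.75 ± 0.11 in wild type and Gpx3, the secreted plasma enzyme, 8.69 ± 0.52 in 5XFAD and 8.48 ± 0.27 in wild type (± SD, n = 3 each). In both the SD was wider in 5XFAD, where replicate 3 was low at 9.12 and 8.11. The endoplasmic reticulum members Gpx7 and Gpx8 differed by -0.01 and 0.25, and Gpx2, at percentile 12.2 and near background, by -0.17. Sod1 of the cytosol differed by -0.10 ± 0.11, Sod2 of mitochondria by -0.06 ± 0.12 and the secreted Sod3 by 0.25 ± 0.22. Cat, the peroxisomal catalase, was at 11.29, 10.92 and 10.48 in 5XFAD and 11.08, 11.23 and 10.96 in wild type. The WT values lay within the 5XFAD range, and the difference was -0.19 ± 0.19 (limma, Benjamini-Hochberg adjusted p = 0.94).

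Over the 42 members, 33 (78.6%) had a 95% interval that stayed within a 1.5-fold difference in either direction, against 89.5% of all genes. The other members were Slc7a11, Glrx, Gpx3, Gpx8, Gsta3, Prdx3, Prdx4, Sod3 and Cat, for which these arrays leave a wider range. In 40 of the 42 the difference between group means was smaller than the wider of the within-group ranges, as in 94.6% of all genes, and the exceptions were Mgst1 and Txn1.

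The arrays of a group differed from each other in a way that many members shared, whatever the genotype. Within 5XFAD, replicate 3 gave the lowest value in 33 of 42 members and replicate 2 the highest in 29. Within WT, replicate 3 gave the lowest value in 30 and replicate 2 the highest in 25. These are 78.6% and 69.0% of the members in 5XFAD and 71.4% and 59.5% in WT. Over all genes the shares for the same arrays were 34.5% and 33.6% in 5XFAD and 35.3% and 36.8% in WT. Over the 11090 genes brighter than the median, which hold 38 of the members, they were 38.6% and 32.3% in 5XFAD and 49.1% and 52.9% in WT. In 27 members (64.3%) the lowest array was replicate 3 in both groups, against 14.8% of all genes and 23.0% of the brighter genes. Those 27 were Slc7a11, Gclc, Gclm, Gss, Gsr and Glrx, the glutathione peroxidases Gpx1, Gpx3 and Gpx8, Prdx2, Prdx3 and Prdx4, and others. The others were Sod1, Sod3, Cat, Nqo1, Txn1, both thioredoxin reductases and the transferases Gsta4, Gstk1, Gstm2, Gstp1, Gstt1, Gstt3, Mgst2 and Mgst3. Ggt5, Gpx4 and Gstm1 went the other way in 5XFAD, with their highest value in replicate 3. In WT replicate 3 was highest in 6 members, Gpx2, Gpx4, Gstm1, Txn2, Keap1 and Hmox1. These arrays were singled out after the values were seen, and the shares carry no test.

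The medians over all probe sets were 5.65, 5.67 and 5.68 in 5XFAD and 5.67, 5.59 and 5.71 in WT, in the order of replicates 1 to 3. After another quantile normalization replicate 3 was lowest in 27 members (64.3%) in 5XFAD and 28 (66.7%) in WT, against 33.4% and 40.6% of the brighter genes. After median centring it was lowest in 33 members (78.6%) in 5XFAD and 34 (81.0%) in WT, against 42.2% and 61.7% of the brighter genes. Over the other 92 measured genes of the pathway replicate 3 was lowest in 41.3% in 5XFAD and 32.6% in WT as deposited, and in 47.8% and 51.1% after median centring. The melanin list mean was also lowest in replicate 3 of both groups, at 11.26, 11.35 and 11.02 in 5XFAD and 11.21, 11.16 and 10.95 in WT, as was the fibroblast and sclera list mean, at 10.07, 10.08 and 9.80 in 5XFAD and 10.06, 9.96 and 9.79 in WT. The same held for adipocytes, at 5.80, 5.70 and 5.57 in 5XFAD and 5.56, 5.62 and 5.51 in WT. It also held for T cells and NK cells, at 5.89, 5.76 and 5.57 in 5XFAD and 5.86, 5.96 and 5.84 in WT. The RPE list mean was highest in replicate 3 in 5XFAD (10.13) and in replicate 2 in WT (10.47). The part of these cells, of RNA quality or of dissection in the shared spread was not tested.

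**Figure D3:**
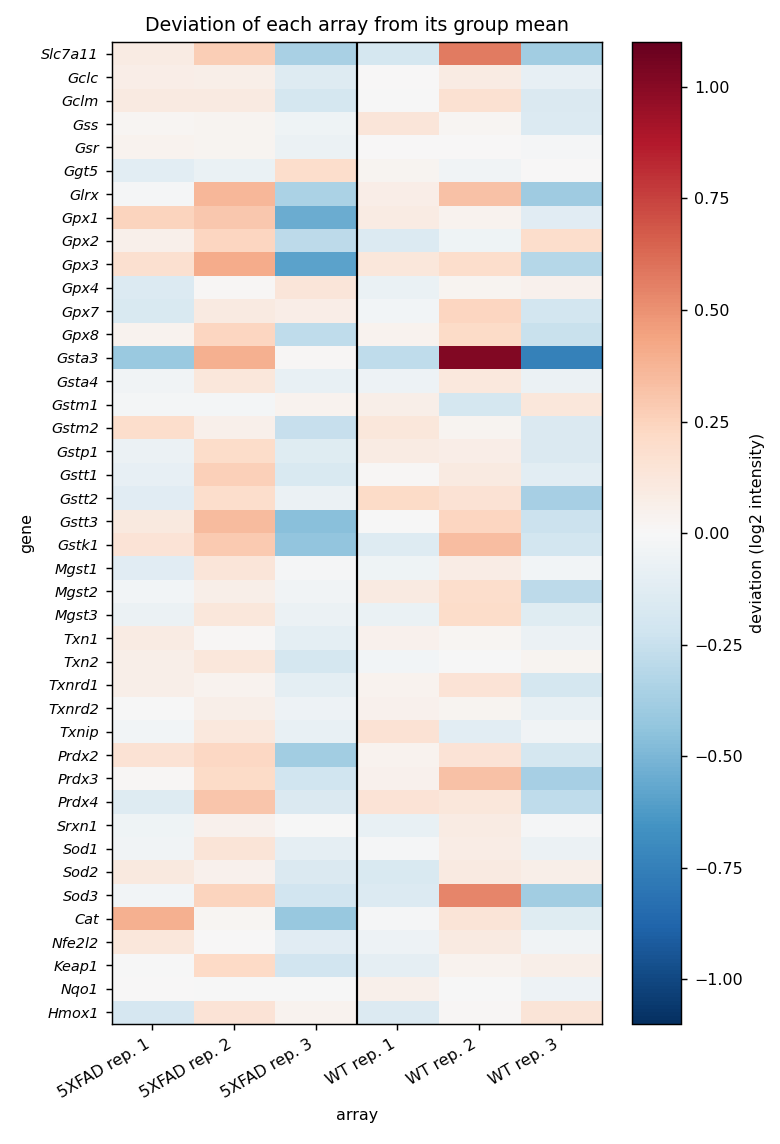
Deviation of each array from its own group mean (colour, log2 intensity) for the 42 measured members in rows, ordered by role. Columns are the 3 5XFAD arrays, left of the line, and the 3 WT arrays. Replicate 3 is blue in most rows in both groups, and replicate 2 is red.

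The wider pathway was read from a list of 102 further genes, of which 92 were measured. By the adjusted threshold 1 passed as higher and 0 as lower in limma, and at an unadjusted p under 0.05 it was 6 (6.52%), 2 higher and 4 lower, against 6.28% of all genes. The gene that passed was Gsto1, an omega class glutathione transferase, at 9.25, 9.39 and 9.74 in 5XFAD and 7.64, 7.41 and 7.47 in wild type, a difference of 1.95 ± 0.14 (limma, Benjamini-Hochberg adjusted p = 0.0018). All 3 5XFAD arrays lay above all 3 WT arrays.

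Me1, the malic enzyme that makes NADPH and is a known NRF2 target, had the smallest p among the rest, at 9.21, 9.07 and 8.95 in 5XFAD and 9.53, 9.68 and 9.54 in wild type. All 5XFAD arrays were lower, by -0.51 ± 0.11, a 0.704-fold level (limma, unadjusted p = 0.0011, Benjamini-Hochberg adjusted p = 0.34). Mafk, a small MAF partner of NRF2, was at 7.00, 6.93 and 7.17 in 5XFAD and 6.51, 6.72 and 6.76 in wild type, all 5XFAD arrays higher by 0.37 ± 0.11 (limma, Benjamini-Hochberg adjusted p = 0.61). Hagh, which hydrolyses the glutathione ester formed from methylglyoxal, was at 6.96, 6.89 and 6.83 in 5XFAD and 7.13, 7.14 and 7.15 in wild type, all 5XFAD arrays lower by -0.25 ± 0.09 (limma, Benjamini-Hochberg adjusted p = 0.73). Abcc1, an exporter of glutathione conjugates, differed by -0.28 ± 0.12, and the carboxylesterase gene Ces1g by -0.40 ± 0.13, neither past the adjusted threshold (limma, Benjamini-Hochberg adjusted p = 0.76 and 0.65).

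The separate lists of the wider pathway had medians near 0. They were -0.02 over 14 other transferases and peroxidases, -0.04 over 20 other genes of the glutathione and thioredoxin systems, 0.04 over 14 selenoprotein genes, 0.03 over 10 genes of NADPH supply, -0.03 over 15 partners and regulators of NRF2, and 0.05 over 19 other NRF2 targets and genes of haem and iron.

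**Figure D4:**
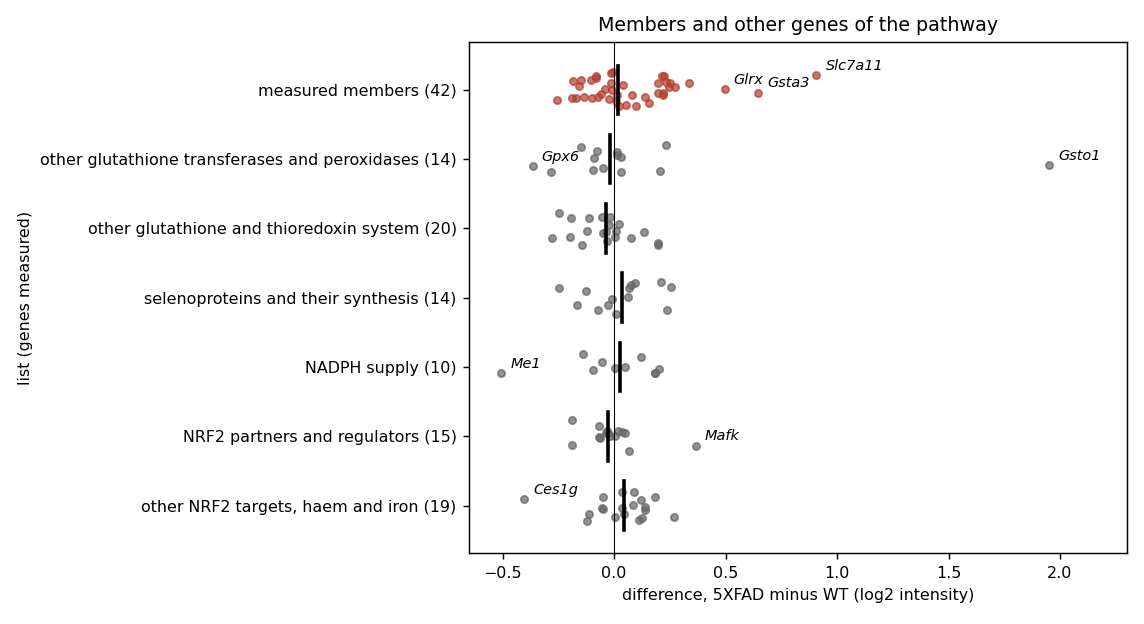
Difference, 5XFAD minus WT, in log2 intensity for the measured members (red) and the 6 further lists of the pathway (grey), 1 point per gene, with the median of each list as a black bar; numbers in brackets are genes measured. Medians lie close to 0 in each list, and Gsto1 at 1.95 stands apart from the rest.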

How the data were processed

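Biotin-labelled cDNA from total RNA was read on Affymetrix arrays, 1 per sample, per the labels. The deposited values are log2 intensities per probe set, which the submitters' processing notes credit to RMA in Affymetrix Expression Console 1.1, run by the authors. RMA subtracts background, quantile-normalizes arrays and summarises probes, and background compresses the differences of dim genes. The sources used here give no filters or detection calls, and no counting depth applies to arrays.

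Of 33793 probe sets 23521 had 1 symbol in the platform annotation, 1814 several and 8458 none. Probe sets with several symbols named no gene, and 7 of them held a member. A gene with several probe sets kept the one with the highest mean over all 6 arrays, as for Slc7a11 and Keap1 among the members.

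Groups came from the sample titles. Under R 4.3.3, limma 3.58.1 (lmFit and eBayes, two-sided, without covariates) compared them over 22180 genes with Benjamini-Hochberg adjustment and a threshold of 0.05. The fit was tested on simulated data. Lists are described by counts and medians without a test. The members, lists and cell markers were chosen with earlier results of these data known. Values per array are given for members with an unadjusted p under 0.05 or groups that do not overlap, for the highest signal and for 9 reference genes of the pathway, and for Gsta3 and Cat, added after their values were seen. Other genes of the pathway are named at an unadjusted p under 0.05, apart from Slc3a2. Motifs were searched in RefSeq promoter windows (GRCm38.p6) and chosen with the values known. Alternatives were the replicate block, filters on dim genes, other normalizations, priors, array weights, probe set rules and leaving out each array.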

Additional observations from a re-analysis of the deposited data

How the results depend on the processing

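No member passed the adjusted threshold in limma under any of 15 alternatives, while the looser rule of a 1.5-fold difference at an unadjusted p under 0.05 took in 1 member, Slc7a11, and 159 genes over all. The number of genes called over all, 5 as reported, was 8 without the dimmest 30% of genes, 9 with median centring, 9 under the robust, trended prior and 8 under array weights, and it ran from 3 (without WT replicate 3) to 19 (without WT replicate 2) when single arrays were left out. The number of members at an unadjusted p under 0.05 ran from 2 (without WT replicate 1) to 7 (without 5XFAD replicate 3). With the replicate number as a block it was 7, with Gclm, Gpx8 and Gsta3 added, and 6 genes were called over all. The labels do not say whether same-numbered samples pair. Over all genes their deviations from the group means correlated at -0.06, -0.05 and 0.13 for replicates 1, 2 and 3. Samples with different numbers gave -0.08 to 0.13. With 3 arrays a group such correlations cannot decide whether the samples pair. Under the block the SE of Slc7a11 was 0.13 in place of 0.25, and that of Glrx 0.11 in place of 0.21. Neither passed the adjusted threshold there (limma, Benjamini-Hochberg adjusted p = 0.12 and 0.32). The median difference of the members ran from -0.04 to 0.08 when single arrays were left out, and changed sign without 5XFAD replicate 2 (-0.04) and without WT replicate 3 (-0.03). Slc7a11 and Mgst1 stayed under an unadjusted p of 0.05 in all 15 alternatives, with differences of 0.44 to 1.19 and 0.27 to 0.40, and Benjamini-Hochberg adjusted p in limma from 0.072 to 0.91 and from 0.43 to 0.96. Glrx did so in 10 and Ggt5 in 9 of 14. The causes were not tested. With 3 arrays a group, the precision is limited by their number.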
